A study of Arabidopsis thaliana with 3 samples.

Results

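The genes described here encode enzymes that modify pectin, and the inhibitors of some of them. They are the 96 genes, of 19777 in the authors' deposited table, whose description there holds the word pectin. The genes QRT1, QRT2 and QRT3, which act when pollen tetrads separate, carry such a description too and were left out by locus. The comparison set 3 lines of Arabidopsis thaliana against the sep1 sep2 sep3 triple mutant. Each line is an independent transgenic of that triple mutant expressing SEP3Δtet, a form of the MADS transcription factor SEPALLATA3 (the series title speaks of its splice variant SEP3.3), so that both genotypes carry the sep1, sep2 and sep3 mutations. Neither the promoter of the transgene nor the number of triple mutant libraries is given in the sources used here. Poly(A) RNA came from inflorescence meristems with flower buds, and the oldest buds were labelled stages 10 to 11 (line 1), 10 to 12 (line 2) and 10 to 13 (line 3), with 1 library per line.

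Pectin is a matrix polysaccharide of the plant cell wall whose main chain, homogalacturonan, is secreted with methyl groups. Pectin methylesterases remove these groups in the wall, and small inhibitor proteins bind and block them. The demethylated chain can be bridged by calcium, or cut by polygalacturonases, which hydrolyse it, and by pectate lyases, which split it by elimination. Pectin acetylesterases remove acetyl groups. In flowers such enzymes are known for softening the meristem where organs emerge, for the release of pollen from its mother cell walls and for the growth of pollen tubes.

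The descriptions are coarser than the enzymes. Genes called pectin lyase-like (49 of the 96) carry a name for a protein fold. The TAIR10.1 annotation, in which all 96 loci were found, gives 28 members as polygalacturonases, 16 as pectate lyases, 23 as pectin methylesterases, 18 as methylesterase inhibitors and 10 as pectin acetylesterases, and leaves 1 (AT4G20040) without an activity. The 18 inhibitors are therefore not enzymes, and related proteins of this superfamily are known to inhibit invertase instead. Their translated proteins had 166 to 276 residues and none held the conserved strings of a methylesterase, of which 21 of the 23 methylesterases held at least 2 of 4 searched in proteins of at least 300 residues. Of the 28 polygalacturonases, 17 held at least 3 of 4 active-site strings of that family.

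The first set of sequences shows the coding strand at one of those active-site strings in the polygalacturonase genes that changed, since their deposited names do not tell the enzyme. Of these genes AT3G42950 held only 2 of the 4 strings searched, and each of the others held at least 3. Capitals mark the codons for asparagine, threonine, aspartate and glycine, and the bases are from the RefSeq TAIR10.1 genome. AT5G39910 is read from chr5:15980529-15980564 on the minus strand, AT3G48950 from chr3:18149134-18149166 on the plus strand and AT5G17200 from chr5:5654364-5654399 on the minus strand. AT3G42950 is read from chr3:15016581-15016613 and AT4G23500 from chr4:12266165-12266197, both on the plus strand, and AT1G60590 from chr1:22315228-22315263 on the minus strand.
AT5G39910: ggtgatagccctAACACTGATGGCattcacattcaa
AT3G48950: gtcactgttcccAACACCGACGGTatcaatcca
AT5G17200: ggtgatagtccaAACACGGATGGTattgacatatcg
AT3G42950: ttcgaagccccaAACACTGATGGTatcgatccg
AT4G23500: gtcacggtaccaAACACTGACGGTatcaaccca
AT1G60590: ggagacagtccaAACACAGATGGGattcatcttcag
AT1G60590 fell in the lines and the other 5 genes rose, so the string was found among genes of either direction.

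The second set shows the 250 bases before the annotated gene start of 3 members that rose strongly, among them a neighbouring pair of inhibitor genes, and of PME5, the most abundant member per kb of exon, which fell. MADS proteins such as SEP3 bind CArG boxes, and capitals mark the MEF2-type CArG box, a variant with a longer core of A and T. The windows are chr5:20362236-20362485 (plus strand) for AT5G50060, chr5:20354339-20354588 (plus) for AT5G50030, chr3:18147421-18147670 (plus) for AT3G48950 and chr5:19272893-19273142 (minus) for AT5G47500 (PME5), from the RefSeq TAIR10.1 genome.
AT5G50060: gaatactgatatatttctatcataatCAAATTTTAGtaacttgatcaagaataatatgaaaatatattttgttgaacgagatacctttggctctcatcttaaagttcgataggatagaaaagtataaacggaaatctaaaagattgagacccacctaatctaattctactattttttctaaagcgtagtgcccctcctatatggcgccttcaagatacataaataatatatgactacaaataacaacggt
AT5G50030: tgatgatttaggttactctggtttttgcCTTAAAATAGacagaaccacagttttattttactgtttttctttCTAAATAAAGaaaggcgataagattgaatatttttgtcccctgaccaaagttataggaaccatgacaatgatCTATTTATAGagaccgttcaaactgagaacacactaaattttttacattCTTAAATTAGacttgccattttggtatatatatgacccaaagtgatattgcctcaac
AT3G48950: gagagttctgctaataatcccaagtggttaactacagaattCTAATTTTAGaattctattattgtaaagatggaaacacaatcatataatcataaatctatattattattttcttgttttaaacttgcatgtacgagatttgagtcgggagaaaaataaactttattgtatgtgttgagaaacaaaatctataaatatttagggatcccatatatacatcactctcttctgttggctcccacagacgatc
PME5: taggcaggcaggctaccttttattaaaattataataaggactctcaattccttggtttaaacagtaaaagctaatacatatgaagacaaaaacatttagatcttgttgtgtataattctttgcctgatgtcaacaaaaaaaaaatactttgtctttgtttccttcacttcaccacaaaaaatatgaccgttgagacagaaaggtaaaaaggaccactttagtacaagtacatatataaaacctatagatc
AT5G50030 held 4 such boxes, AT5G50060 and AT3G48950 held 1 each and PME5 held 0, but these windows do not stand for the genes of either direction. Of the 9 members that rose 4 held at least 1 such box within 250 bases, and of the 13 that fell 4 did. Within 1000 bases 7 of the 9 and 10 of the 13 did, against 61.5% of all genes. Both box types read the same on either strand, so the search covers both strands, and no stretch of bases can match both types at the same position. Within 250 bases, 27 of the 96 members (28.1%) held a MEF2-type box, against 25.4% of 27444 annotated protein-coding genes. The classical CArG box was in 0 of the 96 windows of 250 bases, against 2.52% of all genes, and in 4 of the 96 windows of 1000 bases (4.17%), against 7.21%. None of the 9 members that rose and none of the 13 that fell held a classical box within 1000 bases. A match is a description of letters, and no match says only that these letters are not in the window.

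More pectin genes fell than rose at an adjusted p under 0.05, whereas over the whole table more genes rose than fell. At an adjusted p under 0.01, and at 2-fold or more, more members rose than fell. Members that rose moved further than those that fell, as called genes of the whole table did. At an adjusted p under 0.05 in edgeR's test as the authors deposited it, 9 of 96 members were higher in the lines (9.38%, against 11.6% of all genes tested) and 13 were lower (13.5%, against 5.88%). The other 74 were not called. The median log2 fold change was -0.10 for the members and -0.00094 for all genes per the authors' deposited table. Among members that rose it was 3.36, against 1.88 among all genes that rose, and among members that fell it was -0.55, against -0.45 among all genes that fell. Of the 96 members, 7 were called and at least 2-fold higher, against 7.9% of all genes tested, and 0 were called and at least 2-fold lower, against 0.374%. At an adjusted p under 0.01, 7 members were higher, against 7.49% of all genes, and 4 lower, against 2.12%. Among genes of at least 1 log2 CPM, which leaves out 13 of the 96 members, 7 members were higher, against 9.68%, and 13 lower, against 6.18%. After recentring on the median of abundant genes, 9 members were higher, against 13.1%, and 11 lower, against 4.39%. The 9 that rose had average levels of 0.53 to 5.71 log2 CPM, taken over every library fitted, with a median of 1.99, and the 13 that fell 2.11 to 8.30, with a median of 5.06. The direction of calls over the whole table also differed with abundance: below 1 log2 CPM 26.7% of all genes were higher and 0.849% lower, and between 4 and 8 log2 CPM 6.68% and 7.73%. Between 4 and 8 log2 CPM, 2 of 43 members were higher and 8 lower. The authors' deposited table holds 1 fitted value per gene, so levels in each line and their spread are not shown. An approximate standard error was taken instead as the size of the log2 fold change divided by the square root of F.

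In the comparison of the lines with the triple mutant SEP3 itself was 4.82-fold higher per the authors' deposited table. All 12 tapetum marker genes rose, with log2 fold changes of 2.71 to 4.13, per the authors' deposited table, a range that holds 4 of the 9 members that rose (AT1G11920, AT3G48950, AT5G17200 and AT5G50030) and all 3 QRT genes. The share of all risen genes that lies in this range was not taken, so the count does not set these members apart. Of 13 mature pollen markers 4 were measured and 2 rose, 3 of 4 carpel and ovule markers rose, and all 5 green tissue markers fell, with log2 fold changes of -1.40 to -0.38 per the authors' deposited table. The part of these tissues in the changes of the pectin genes was not tested. In whole meristems and buds, fewer cells of a type and less RNA per cell cannot be told apart, and the labelled stages of the oldest buds differed between the lines.

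**Figure D1:**
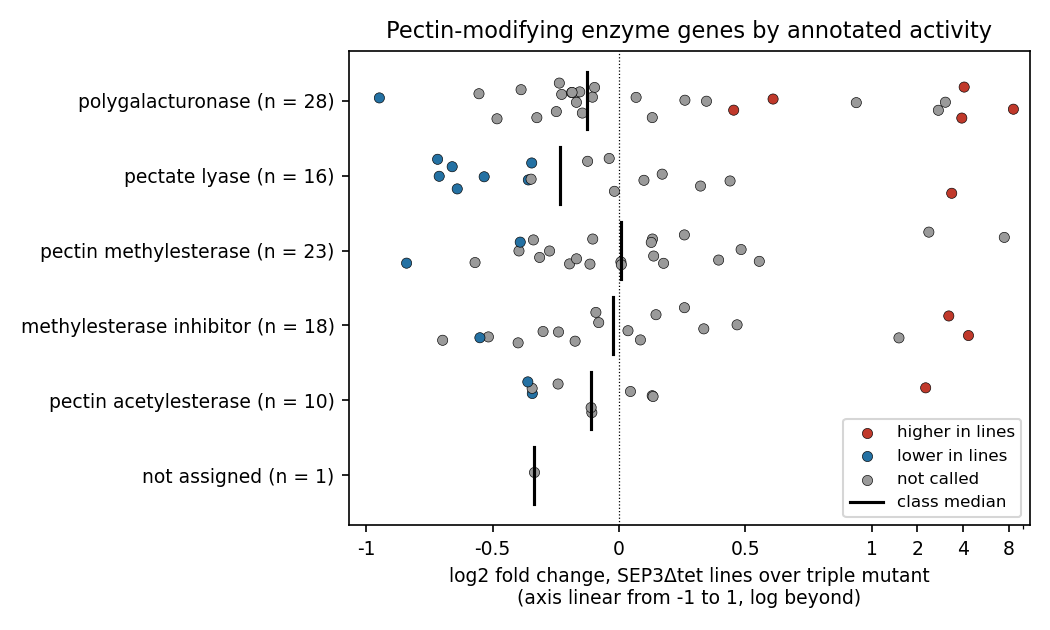
Log2 fold change (x axis, SEP3Δtet lines over triple mutant, linear between -1 and 1 and logarithmic beyond) of each of the 96 genes, in rows by annotated activity, with 1 point per gene, spread vertically for visibility only, and a bar at the class median. Most pectate lyase points lie below 0, with a median of -0.24, while the 3 polygalacturonase genes beyond 2-fold among those that rose lie between 3.92 and 8.58.

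**Figure D2:**
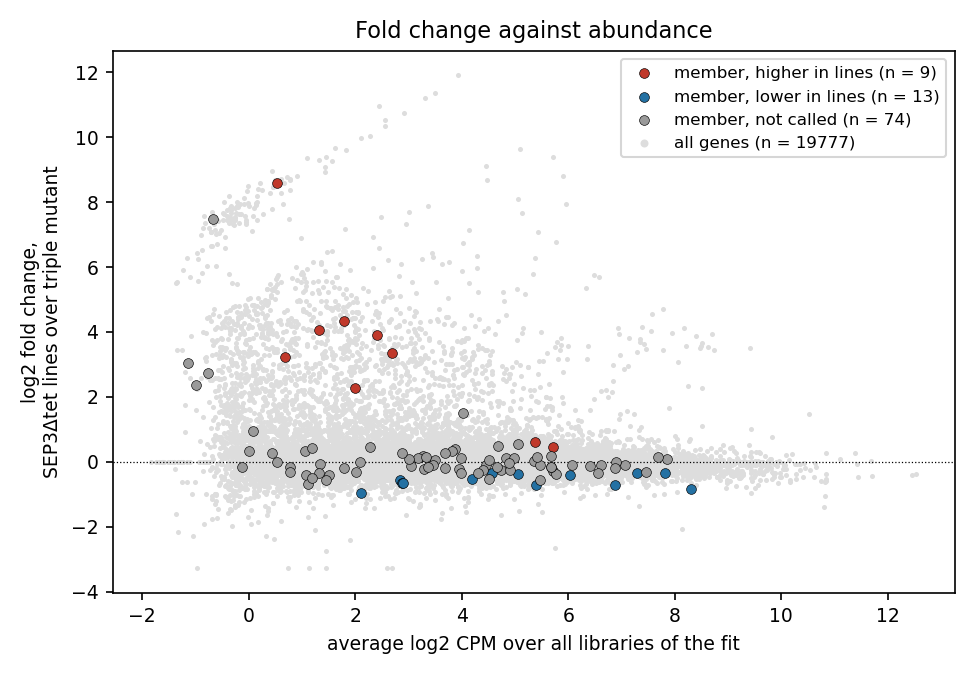
Log2 fold change (y axis) against the average log2 CPM of every library fitted (x axis) for the 96 genes, coloured by call, over all 19777 genes in grey. The 7 members that rose at least 2-fold lie below 3 log2 CPM, and the 13 that fell reach up to 8.30.

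Polygalacturonases, the largest class, held 5 of the 9 members that rose. Of the 28, 5 rose (17.9%, against 11.6% of all genes) and 1 fell (3.57%, against 5.88%). The other 22 were not called, and the class median was -0.13. At an adjusted p under 0.01, and at 2-fold or more, 3 of the 7 members that were higher belonged to the class, and it had 0 lower. AT5G39910 had a log2 fold change of 8.58 ± 1.33 (approximate SE, adjusted p = 0.0011 by edgeR) at an average of 0.53 log2 CPM per the authors' deposited table. Its log2 fold change exceeded its average log2 CPM by 8.05, a position reached where the triple mutant had next to no reads, and there the fitted fold depends on the prior count and gives no bound. AT3G48950 rose by 4.06 ± 0.59 (adjusted p = 4.7e-04) and AT5G17200 by 3.92 ± 0.57 (adjusted p = 7.3e-04) on the log2 scale per the authors' deposited table. Only members and the QRT genes were compared, and the 3 genes named outright as polygalacturonases were left out. Among the compared proteins of the class, the closest was 43.6% identical to AT5G39910 and 46.5% to AT5G17200. In each case it was AT3G15720, which was not called (-0.23 per the authors' deposited table). Genes that were not called also lay this far from their closest relative, such as AT1G80170 at 44.3%. AT3G48950 was 66.8% identical to AT4G23500. Its coding sequence is however 76.0% identical to that of AT2G23900, which was not among the genes tested.

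The other increases were small and lay in more abundant genes. AT3G42950 (0.61 ± 0.15, adjusted p = 0.017) and AT4G23500 (0.45 ± 0.11, adjusted p = 0.012) averaged 5.38 and 5.71 log2 CPM per the authors' deposited table. AT1G60590 was the 1 polygalacturonase gene that fell (-0.95 ± 0.27, adjusted p = 0.031), the lowest log2 fold change of any member per the authors' deposited table. Its closest relative AT1G10640 (78.6% identical) was not called, at -0.33. Nor was AT1G48100 (-0.55 ± 0.25, adjusted p = 0.176) per the authors' deposited table. It overlaps an antisense non-coding RNA gene by 802 bp, and whether counting used strand was not stated, so its value is uncertain. The highly similar genes AT3G07850 and AT3G14040, with 97.7% identical proteins, had log2 fold changes of 2.75 ± 1.28 and 3.06 ± 1.59 per the authors' deposited table. Neither was called (adjusted p = 0.177 and 0.234), and they averaged -0.76 and -1.13 log2 CPM. How reads shared by 2 genes were counted was not stated in the sources used, so the values of this pair are uncertain.

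Pectate lyase genes that passed the test were mostly lower. Of the 16, 7 were lower (43.8%, against 5.88% of all genes) and 1 was higher (6.25%, against 11.6%). The other 8 were not called, and the class median was -0.24. At an adjusted p under 0.01 3 were lower, and 0 at 2-fold or more. The decreases ran from -0.72 to -0.35 per the authors' deposited table. AT3G07010 (-0.71 ± 0.11, adjusted p = 9.6e-04), AT4G24780 (-0.72 ± 0.14, adjusted p = 0.0046) and AT4G13210 (-0.53 ± 0.11, adjusted p = 0.0047) had the smallest p of these per the authors' deposited table. AT5G63180 (-0.66), AT5G48900 (-0.64), AT3G53190 (-0.36) and AT1G04680 (-0.35) fell as well per the authors' deposited table, with adjusted p of 0.010 to 0.021. AT3G07010 overlaps an antisense gene by 454 bp and AT4G13210 an antisense pseudogene by 153 bp, and the sources used do not state whether counting used strand, so their values are uncertain.

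Most pectate lyases that fell have a close relative in the class. Only members were compared. Among the 9 pectate lyases that share at least 70% of aligned residues with another, 6 were lower, 0 higher and 3 not called. Among the other 7, 1 was lower, 1 higher and 5 not called. The 2 genes named outright as pectate lyases are not members and were left out. AT3G24230, which rose (3.03), has a coding sequence 79.4% identical to that of AT4G13710, a gene of the 9. AT1G67750, which fell (-0.41 per the authors' deposited table), has one 73.8% identical to that of AT3G27400, also of the 9. AT3G07010 and AT5G48900 are 85.8% identical, and AT4G24780 and AT5G63180 79.6%. AT3G24670, 81.4% identical to AT4G13210, stood at 0.10 and was not called per the authors' deposited table. AT1G11920, which rose (3.36 ± 0.42, adjusted p = 2.1e-04 per the authors' deposited table), was at most 58.4% identical to any other member of the class, the closest being AT4G24780. Its coding sequence is however 79.2% identical to that of AT1G30350, which was not among the genes tested. PMR6, a pectate lyase-like gene known from powdery mildew resistance, stood at -0.02 (adjusted p = 0.933) per the authors' deposited table. It overlaps an antisense gene by 810 bp, so its value is uncertain as well.

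**Figure D3:**
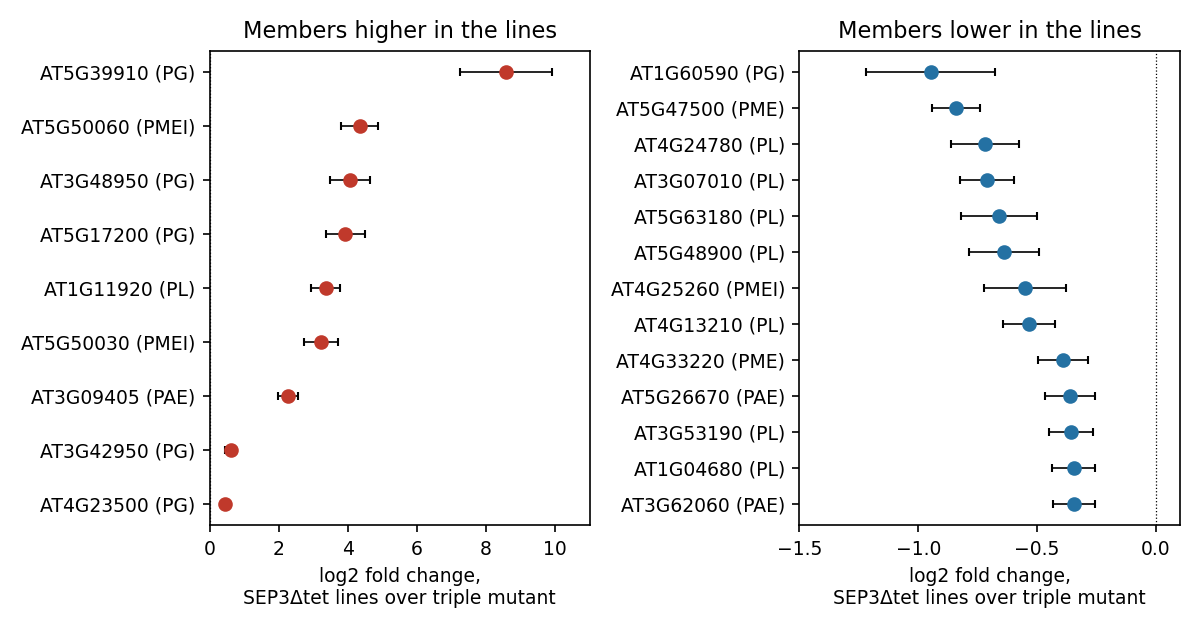
Log2 fold change (x axes, on different scales in the 2 panels) of the 9 genes that rose, on the left, and of the 13 that fell, on the right. Bars are the approximate SE from F, and PG, PL, PME, PMEI and PAE stand for polygalacturonase, pectate lyase, pectin methylesterase, methylesterase inhibitor and pectin acetylesterase. Increases reach 8.58, and the strongest decrease is -0.95.

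None of the 23 pectin methylesterase genes rose by edgeR's test (against 11.6% of all genes), 2 fell (8.70%, against 5.88%) and 21 were not called, with a class median of 0.0072. By the same test 5 of the 23 had an unadjusted p under 0.05, against 5870 of all 19777 genes. PME5, a methylesterase known to act in the shoot meristem where organs form, fell by 0.84 ± 0.10 on the log2 scale (1.79-fold, adjusted p = 1.1e-04) per the authors' deposited table. At an average of 8.30 log2 CPM it was the most abundant member as counted, and per kb of exon too, at 7.76. PME44 (AT4G33220) fell by 0.39 ± 0.10 (adjusted p = 0.021) per the authors' deposited table, and it overlaps an antisense gene by 114 bp. QRT1, the closest relative of PME5 in the class at 45.3% identity, had a log2 fold change of 3.20 (adjusted p = 6.3e-04) per the authors' deposited table, and QRT2 and QRT3 had 3.67 and 2.98. Other abundant methylesterase genes did not pass the test: PME3 stood at -0.10 ± 0.12 (adjusted p = 0.622) and AT3G49220 at -0.12 ± 0.18 (adjusted p = 0.733) per the authors' deposited table. PME35 (AT3G59010), known from the mechanical support of the stem, stood at 0.0088 ± 0.36 (adjusted p = 0.995) per the authors' deposited table.

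Methylesterase genes known from pollen lay at very low levels. VGD1, needed for pollen tube growth in the style, had a log2 fold change of 7.48 ± 2.70 but averaged -0.66 log2 CPM and was not called (unadjusted p = 0.022, adjusted p = 0.096) per the authors' deposited table. Its log2 fold change exceeded its average log2 CPM by 8.14, so that its fitted fold depends on the prior count as that of AT5G39910 does and gives no bound. AT5G07410 stood at 2.38 ± 1.32 (adjusted p = 0.264) at -0.99 log2 CPM per the authors' deposited table. Its coding sequence is 96.6% identical to that of PPME1, a pollen methylesterase gene that is not analysed here, so its value is uncertain. With 12 members at a log2 fold change of at least 1, 7 of them called, these 2 genes, the AT3G07850 and AT3G14040 pair and the inhibitor gene AT5G62360 made up the 5 not called, 4 of which averaged under 1 log2 CPM. A missed call at such levels does not show an equal level.

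Both genes of a neighbouring pair of inhibitor genes rose. AT5G50060 (chromosome 5, 20362486 to 20363597) had a log2 fold change of 4.34 ± 0.52 (adjusted p = 1.1e-04), and AT5G50030 (20354589 to 20355706) one of 3.22 ± 0.49 (adjusted p = 6.8e-04), per the authors' deposited table. They lie 6779 bp apart on the plus strand, and their proteins are 48.2% identical, with coding sequences 63.9% identical over aligned bases. Of the 18 inhibitor genes, these 2 rose, AT4G25260 fell (-0.55 ± 0.17, adjusted p = 0.047 per the authors' deposited table) and 15 were not called, with a class median of -0.02. These shares, 11.1% higher and 5.56% lower, lie near the 11.6% and 5.88% of all genes. Recentred on abundant genes, AT4G25260 lost its call (adjusted p = 0.0642) and the class median was 0.02. AT4G25260 shares 306 bp with AT4G25270 on the same strand, so its value is uncertain. The most abundant inhibitor genes, AT5G20740 (0.08 ± 0.14, adjusted p = 0.754) and AT5G62350 (0.15 ± 0.15, adjusted p = 0.588), did not pass the test per the authors' deposited table. AT5G62360, the neighbour of AT5G62350, stood at 1.51 ± 0.57 (adjusted p = 0.121) per the authors' deposited table, and its approximate SE lay above that of 98.0% of the 200 genes of closest abundance. Such a value was not particular to this gene, since 15 of the 96 members lay above 90% by this measure. Among them were AT5G39910 (99.0%), AT5G17200 and AT1G11920 (95.0% each), AT3G48950 (94.5%) and AT5G50060 (91.5%), which all rose. The other members that rose lay at 57.0% to 89.0%. The size of the log2 fold change is part of this measure. A high place of a gene that rose strongly therefore does not by itself show a wide spread between libraries.

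Neighbours did not always move together. There were 6 pairs of these genes, QRT3 included, within 10 kb of each other. AT3G09405 rose by 2.26 ± 0.29 (adjusted p = 1.8e-04), while its close relative AT3G09410 stood at 0.13 ± 0.13 (adjusted p = 0.576) per the authors' deposited table. The annotated ends of this same-strand pair overlap by 37 bp, and their coding sequences are 85.7% identical, so their values are uncertain. AT4G20040 lies 644 bp from QRT3 and was not called (-0.34, adjusted p = 0.546), whereas QRT3 was higher, per the authors' deposited table. AT2G47050, an inhibitor gene 1347 bp from VGD1, stood at 0.47 (adjusted p = 0.237) per the authors' deposited table.

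Among the 10 pectin acetylesterase genes, AT3G09405 rose (against 11.6% of all genes), 2 fell (against 5.88%) and 7 were not called, with a class median of -0.11. AT3G62060 (PAE6, -0.34 ± 0.09, adjusted p = 0.019) and AT5G26670 (-0.36 ± 0.11, adjusted p = 0.035) fell per the authors' deposited table. Neither passed at an adjusted p under 0.01, and AT5G26670 lost its call on recentring (adjusted p = 0.0589). The 2 most abundant as counted, AT4G19410 (PAE7, -0.11) and AT3G05910 (-0.11), were not called per the authors' deposited table. AT4G19410 shares 1097 bp with AT4G19400 on the same strand, so its value is uncertain.

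**Figure D4:**
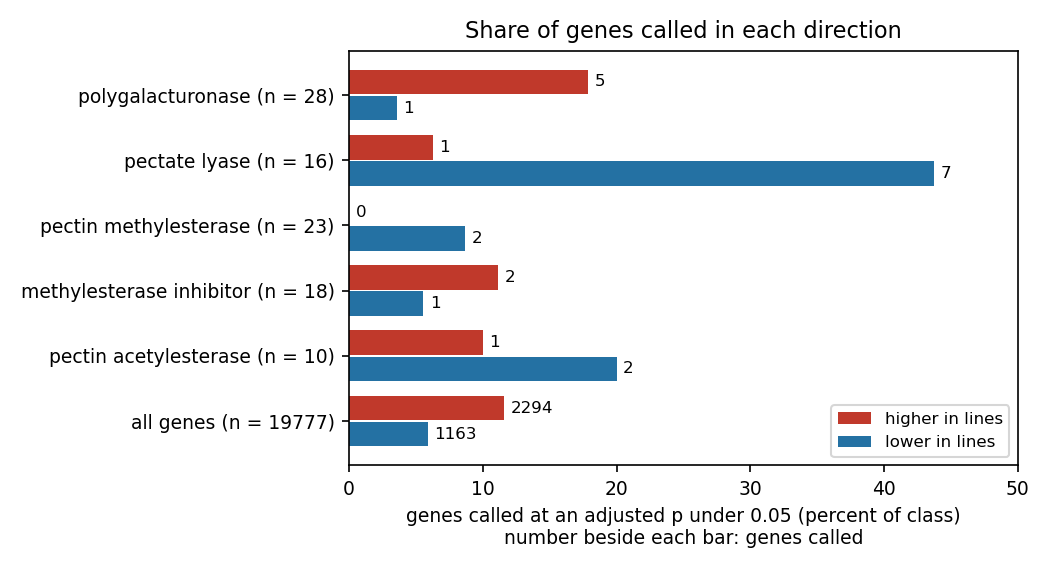
Percent of genes called higher and lower in the SEP3Δtet lines (x axis), by annotated activity, with all 19777 genes in the lowest row. The number beside each bar is the count of genes. Pectate lyases reach 43.8% lower, against 5.88% of all genes, in a class of 16 genes that share sequence.

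Other genes of pectin synthesis, breakdown and sensing were taken from a list of 43 genes that are not members: 5 were higher, 2 lower and 36 not called, with a median of 0.03. These counts lie near the shares of all genes (11.6% higher and 5.88% lower). Of 19 galacturonosyltransferase genes, whose enzymes build homogalacturonan and related chains, GAUT2 (3.77) and GAUT6 (0.50) rose and GATL3 (-0.36) fell per the authors' deposited table. Of 2 genes named outright as pectate lyases, AT3G24230 rose (3.03) and AT1G67750 fell (-0.41) per the authors' deposited table. Of 6 rhamnogalacturonate lyase genes, whose enzymes cut another pectin chain, AT1G09880 (3.10) and AT4G38030 (4.02) rose and 4 were not called per the authors' deposited table. Of the 12 genes listed by locus, which include the homogalacturonan methyltransferase gene OSU1 (0.05) and the pectin-binding receptor kinase gene FER (0.13), none was called by edgeR's test per the authors' deposited table.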

How the data were processed

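Poly(A) RNA from inflorescences was sequenced as paired 150 bp reads, per the labels' protocols, from 3 SEP3Δtet lines and the sep1 sep2 sep3 triple mutant, whose libraries are not analysed here. The submitters' processing notes name STAR, featureCounts, edgeR and TAIR10, with no versions. The deposited table holds, per the file headers, the authors' log2 fold change, average log2 CPM, F score, p-value and adjusted p-value for 19777 genes. It holds no counts per library, so depth is unknown and no model was refitted to counts. A positive log2 fold change was read as higher in the lines, since the authors name the lines before the triple mutant. Calls used the authors' adjusted p-value under 0.05, and that adjustment was recomputed and matched within 1.8e-15.

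Computed here were counts and medians per class, the approximate SE, protein and coding identities (from TAIR10.1 coding sequences), and CArG matches, in Python 3.11.15 with pandas 2.3.3. Identities were taken over the aligned positions of global alignments in Biopython 1.88. The coding identities that involve PPME1, AT3G24230, AT1G67750, AT1G30350 and AT2G23900 are instead from BLAST+ 2.17.0, and the 2 measures can differ for the same pair. For recentring, the median log2 fold change of genes of at least 4 log2 CPM was subtracted, and F was recomputed with the approximate SE. The p-values were taken with the denominator degrees of freedom solved from the deposited F and p-value (11.85 for most genes). They were adjusted again by Benjamini-Hochberg and are approximate. The step was run on simulated data in which F was the squared ratio of fold change to SE. That run could not test whether the deposited F has this form. Activity classes follow annotation notes and were made with values known, and sequence classes replaced a planned split by RefSeq proteins. The members and gene lists were chosen with earlier results of these data known. Genes were named by rule: in each name class up to 6 that rose and 4 that fell, by smallest p, the 2 most abundant, loci of known role, and the QRT genes. AT5G48900, AT5G63180, AT1G04680, AT1G60590, AT3G07850, AT3G14040, AT5G62360 and others outside it, such as relatives and neighbours, were chosen after their values were seen. Replicate lines are separate transgenic lines. The p-values come from the authors' fit, which also used the triple mutant libraries, so they do not measure the spread between the 3 lines alone.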

Additional observations from a re-analysis of the deposited data

How the results depend on the processing

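No paired analysis was possible because the table holds 1 fitted value per gene, and leaving out a line was not run for the same reason. The median of all members stayed below 0, and no gene named by rule changed sign, while PMR6, named outside it, stood at 0.02 on recentring. Recentring, by a shift of -0.04, gave a median of 0.04 over all genes and of 0.02 over the inhibitors, both below 0 as deposited, while the other class medians kept their sign (an alternative chosen after seeing the data). At an adjusted p under 0.01 (7.49% of all genes higher, 2.12% lower) 4 members were lower, all 4 of the pectin lyase-like name, with 3 pectate lyases and 1 methylesterase by activity; 0 inhibitor, acetylesterase or polygalacturonase genes were lower, 0 genes of the methylesterase name, and 3 polygalacturonases were higher. At 2-fold or more (7.9% and 0.374%) 0 members were lower in any class, and 3 polygalacturonases were higher. With genes of at least 1 log2 CPM only (9.68% and 6.18%), 1 inhibitor was higher. After recentring on abundant genes (13.1% and 4.39%), 0 inhibitors and 1 acetylesterase were lower: AT4G25260 had an adjusted p of 0.0642 and AT5G26670 one of 0.0589. Of the 18 genes named by rule that were called, 11 kept their call at an adjusted p under 0.01 and 7 lost it. What depth limits cannot be given, since the table holds no counts.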
